A study of Mus musculus and Bos taurus with 26 samples.

Results

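Mouse embryos kept in 50 nM FK228 from the zygote stage on were compared with embryos cultured in KSOM, an embryo culture medium, with DMSO, both taken at the late 2-cell stage, 36 h after fertilization. FK228 (romidepsin) is an inhibitor of the class I histone deacetylases HDAC1, HDAC2, HDAC3 and HDAC8, and DMSO is its solvent. There were 2 libraries of each kind, 4 of the 26 libraries of the series, made from polyA RNA of whole embryos, and every mean or fold change below rests on n = 2 libraries a group. A gene was tested if its FPKM (fragments per length of transcript and size of library) was at least 1 in at least 2 of the 4 libraries, which 14538 of 27988 genes met. Of these, 2251 passed only through their level with FK228 and 476 only through their level with DMSO. The labels name no mutation, injection or mouse strain for these embryos, and they do not say whether the replicate libraries came from separate cultures, so the p-values cover only how far these libraries differ, which can be a technical spread. The DMSO concentration and the number of embryos in a library are not stated in the labels.

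A further 6 mouse groups served as a frame, each with 2 libraries. Water-injected late 2-cell embryos were an independent control. Embryos injected as zygotes with wild-type Hdac1 mRNA, taken at 24 h (early 2-cell) and 36 h (late 2-cell), gave the change over the last 12 h of culture in embryos that were not treated, and they carried Hdac1 mRNA at 2707 and 2960 FPKM at 36 h, against 90.6 and 92.1 FPKM in the DMSO embryos. Late 2-cell embryos injected with mutant Hdac1 or mutant Hdac2 mRNA were set against their own wild-type mRNA controls. The mutations are not given in the labels.

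Histone deacetylases remove acetyl groups from histone tails, and HDAC1 and HDAC2 do so as the catalytic subunits of the NuRD, SIN3 and CoREST complexes, which repress or tune transcription. In the mouse, transcription of the embryonic genome begins with a minor wave in the zygote and early 2-cell embryo, in which Dux and the Zscan4 family are expressed for a short time, and is followed by a major wave at the late 2-cell stage that switches on the ribosomal, RNA processing and metabolic genes on which cleavage depends. Maternal transcripts stored in the oocyte are cleared over the same interval.

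The promoters of 4 of the genes with the largest changes are shown because they stand for both sides of the response: 2 genes that were near silent in the control embryos and high with FK228 (Nrtn and Ripk3), and 2 that were abundant in the control embryos and low with FK228 (Tbrg1 and Uqcr10). Each is the first of its direction by size of change whose RefSeq start lay within 50 bases of the annotated gene start and whose upstream bases overlapped no exon of another gene. The sequences are the 250 bases before the start, 5′ to 3′ on the strand of the gene (the minus strand for all 4), from RefSeq on GRCm38.p6, with CpG dinucleotides in capitals.
Nrtn (chr17:56757549-56757798): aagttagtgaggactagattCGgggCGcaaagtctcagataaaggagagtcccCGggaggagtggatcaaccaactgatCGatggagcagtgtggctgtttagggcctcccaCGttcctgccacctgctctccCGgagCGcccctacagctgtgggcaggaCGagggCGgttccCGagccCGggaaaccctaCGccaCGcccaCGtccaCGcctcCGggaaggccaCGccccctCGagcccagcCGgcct
Ripk3 (chr14:55788858-55789107): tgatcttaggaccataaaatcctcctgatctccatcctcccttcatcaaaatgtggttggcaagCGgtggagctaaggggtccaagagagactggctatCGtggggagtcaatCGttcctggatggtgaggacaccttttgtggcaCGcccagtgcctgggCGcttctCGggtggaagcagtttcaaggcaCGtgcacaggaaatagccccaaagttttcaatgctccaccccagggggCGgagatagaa
Tbrg1 (chr9:37657313-37657562): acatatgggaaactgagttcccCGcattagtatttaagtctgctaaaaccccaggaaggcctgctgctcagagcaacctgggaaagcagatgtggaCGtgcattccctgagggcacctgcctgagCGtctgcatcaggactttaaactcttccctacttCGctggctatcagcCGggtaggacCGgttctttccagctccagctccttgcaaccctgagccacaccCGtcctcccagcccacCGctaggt
Uqcr10 (chr11:4704345-4704594): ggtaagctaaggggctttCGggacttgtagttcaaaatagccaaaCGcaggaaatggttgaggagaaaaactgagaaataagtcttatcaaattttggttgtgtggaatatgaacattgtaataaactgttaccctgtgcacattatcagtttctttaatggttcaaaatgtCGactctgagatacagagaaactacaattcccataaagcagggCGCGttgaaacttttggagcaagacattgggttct
The Nrtn promoter held 19 CpG dinucleotides, the Ripk3 and Tbrg1 promoters 8 each and the Uqcr10 promoter 5, where the median of 16718 promoters in the RefSeq table was 11. A GC box (GGGCGG on either strand) was found once in the Nrtn and once in the Ripk3 promoter and in neither of the others, and 46.3% of all promoters in the table held one. No TATA box (TATAAA, either strand, held by 9.55% of all promoters) and no ETS core (CCGGAA, either strand, held by 16.5%) was found in the 4 windows. The table covered 10385 of the genes tested, too few for a comparison of promoters between gene groups.

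The libraries of a group were alike and the groups stood far apart. On log2(FPKM + 1) over the genes tested, Pearson's r was 0.965 between the FK228 libraries and 0.983 between the DMSO libraries, and 0.677 to 0.691 between an FK228 and a DMSO library. DMSO libraries correlated with water-injected embryos at 0.949 to 0.96, and FK228 libraries did so at 0.643 to 0.665. More genes were detected with FK228, 14285 and 14331 at 1 FPKM or more against 11988 and 12105, and fewer were abundant, 330 and 333 genes at 100 FPKM or more against 723 and 732. Absolute depth is unknown from FPKM; from the spacing of low values, 1 read in a DMSO library was worth 0.779 to 0.816 times the FPKM of 1 read in an FK228 library, a rough estimate, since at most 11.7% of low genes lay at the ratio. Mitochondrial transcripts made up 12.4% and 9.38% of summed FPKM with FK228 and 7.29% and 7.69% with DMSO. They made up 11.57% and 8.36% in water-injected embryos and 12.65% and 11.14% in 36 h embryos with wild-type Hdac1 mRNA. The FK228 values thus lay within the range of the control libraries. Since FPKM are relative to each library's total, a change in total RNA per embryo is not seen, and in whole-embryo libraries fewer cells with a transcript and less of it per cell cannot be told apart.

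FK228 moved about as many genes up as down. With limma (adjusted p under 0.05), 4982 genes (34.3% of those tested) were higher with FK228 and 4550 (31.3%) were lower. A change of at least 2-fold was called for 3665 higher genes (25.2%) and 3357 lower genes (23.1%), and one of at least 8-fold for 477 and 236. Without FK228 replicate 1 or 2 the higher calls were 2354 and 2374, with 12169 and 12152 genes left to test, since a gene then needs 1 FPKM in 2 of 3 libraries and those present only with FK228 drop out. The 4 libraries split without overlap for 84.4% of the genes tested. The median log2 fold change over all genes was 0.11, and it moved to 0.24 when libraries were scaled by the median ratio and to 0.01 with quantile normalization. Genes higher by at least 2-fold had a median of 0.775 FPKM in DMSO embryos and 7.1 FPKM with FK228. Genes lower by at least 2-fold had a median of 27.5 FPKM in DMSO embryos and 6.54 FPKM with FK228. The high DMSO median of the lower genes is in part set by the scale of FPKM + 1, on which a gene with a low DMSO level cannot fall by 2-fold. The low DMSO median of the higher genes is in part set by the filter, which 2251 genes passed only through FK228, and without FK228 replicate 1 or 2 the genes higher by at least 2-fold were 1742 and 1765.

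**Figure D1:**
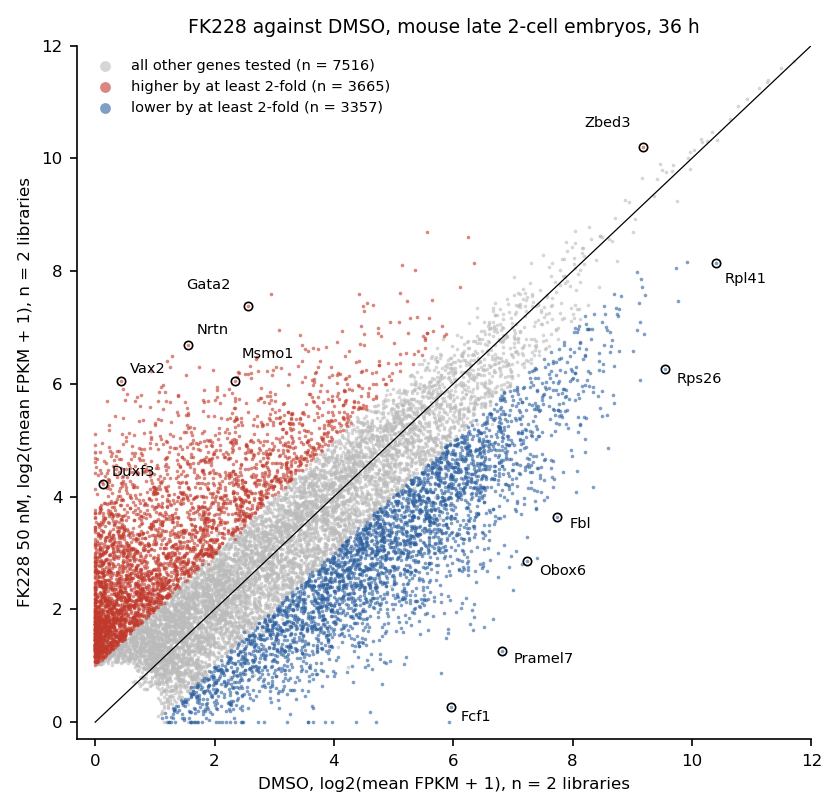
Mean level of each tested gene with DMSO (horizontal axis) and with FK228 (vertical axis), both as log2(FPKM + 1) of the mean of 2 libraries; the line marks equal levels, and named genes are circled. Genes higher by at least 2-fold (red, 3665) crowd toward the left, where DMSO levels are low, and genes lower by at least 2-fold (blue, 3357) spread to the right, up to Rpl41 and Rps26.

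The largest increases were in genes that control embryos hardly express. Vax2, a homeodomain factor of the ventral eye, was at 63 and 67.5 FPKM with FK228 and 0.565 and 0.125 FPKM with DMSO (log2 fold change 5.64 ± 0.27, adjusted p = 4.3e-10). Adgrb1, an adhesion receptor that recognises apoptotic cells, was at 49.7 and 52.2 FPKM with FK228 and 0.0587 and 0.23 FPKM with DMSO (5.51 ± 0.27 on the log2 scale, adjusted p = 4.5e-10). In both genes the FK228 libraries lay close together and far above every DMSO and water-injected library. Sox8, a SoxE factor of neural crest and testis (chr17:25565892-25570686 in GRCm38), stood at 73.1 and 74.7 FPKM with FK228 and 0.542 and 1.27 FPKM with DMSO (log2 fold change 5.32 ± 0.26, adjusted p = 5.3e-10). Nrtn, a ligand of the GDNF family, reached 93.2 and 111 FPKM from 1.36 and 2.49 FPKM (log2 fold change 5.16 ± 0.32, adjusted p = 2.7e-09). Foxj1, the master factor of motile cilia, had 55.1 and 55.3 FPKM with FK228 against 0.53 and 0.369 (log2 fold change 5.28 ± 0.35, adjusted p = 4.8e-09). None of these 3 genes had a DMSO value above 2.49 FPKM. Ripk3, the kinase that triggers necroptosis, was at 36.4 and 48.1 FPKM with FK228 and 0.233 and 0.27 FPKM with DMSO (log2 fold change 5.10 ± 0.26, adjusted p = 6.0e-10). Hmx1, a homeobox factor of eye and ear, was at 55.2 and 51.9 FPKM with FK228 and 0.752 and 0.5 FPKM with DMSO (5.07 ± 0.23 on the log2 scale). Pimreg, a mitotic regulator, rose from 0.198 and 0.572 to 50.1 and 68 FPKM (log2 fold change 5.44 ± 0.34, adjusted p = 3.2e-09). Tmsb15a, a thymosin beta that binds actin monomers, was listed at 0 in both DMSO libraries and both water-injected libraries and at 40.6 and 26.3 FPKM with FK228, so that no fold is given. Oxct2b, a ketone body enzyme of the testis, rose from 1.2 and 1.4 to 81.2 and 85.8 FPKM, but 28.8% of its exon length is shared with Gm17244, and the labels describe no strand-marking step. For all 10 genes the 2 FK228 values lay above the DMSO values, as the rule for naming required, and above the water-injected values too.

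The largest decreases were in genes that control embryos express well. Fcf1, a factor of small ribosomal subunit assembly, was at 58.9 and 64.3 FPKM with DMSO and at 0.413 and 0 FPKM with FK228 (log2 fold change -5.72 ± 0.33, adjusted p = 1.6e-09). Pramel7, a PRAME family gene of the early embryo, fell from 112 and 111 to 1.62 and 1.16 FPKM (log2 fold change -5.57 ± 0.39, adjusted p = 8.2e-09). These levels with FK228 were below those of 24 h embryos, which had 4.14 and 2.59 FPKM of Fcf1 and 2.32 and 2.39 FPKM of Pramel7. Tbrg1, which binds the tumour suppressor ARF, went from 48.8 and 60 to 0.857 and 0.788 FPKM (log2 fold change -4.92 ± 0.26, adjusted p = 7.2e-10). Uqcr10, a subunit of respiratory complex III, went from 82.3 and 98.6 to 1.9 and 2.54 FPKM (log2 fold change -4.83 ± 0.34, adjusted p = 9.7e-09). Psmb5, a catalytic subunit of the proteasome core, had 84.3 and 69.9 FPKM with DMSO and 2.33 and 2.35 with FK228 (log2 fold change -4.54 ± 0.28, adjusted p = 3.2e-09). The FK228 libraries thus held a few FPKM at most of transcripts that the DMSO libraries held at 48.8 FPKM or more. Mocs3, an enzyme of molybdenum cofactor synthesis, was at 1.96 and 2.28 FPKM with FK228 and 85.2 and 74 FPKM with DMSO. Timd2, a receptor of ferritin, was at 4.76 and 3.42 FPKM with FK228 and 109 and 144 FPKM with DMSO, and Wdr55, a nucleolar protein, at 2.76 and 2.55 FPKM with FK228 and 83 and 78.1 FPKM with DMSO. Rpl37a and Rps27, proteins of the large and small ribosomal subunit, completed the 10, and Rps27 was listed at 0 in both FK228 libraries against 24.4 and 25.6 FPKM with DMSO. Rps27 has near-identical copies in the genome, and its value is uncertain. In 9 of the 10 genes, Rps27 apart, the transcript had been called as switched on by at least 4-fold between 24 and 36 h in the embryos with wild-type Hdac1 mRNA.

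**Figure D2:**
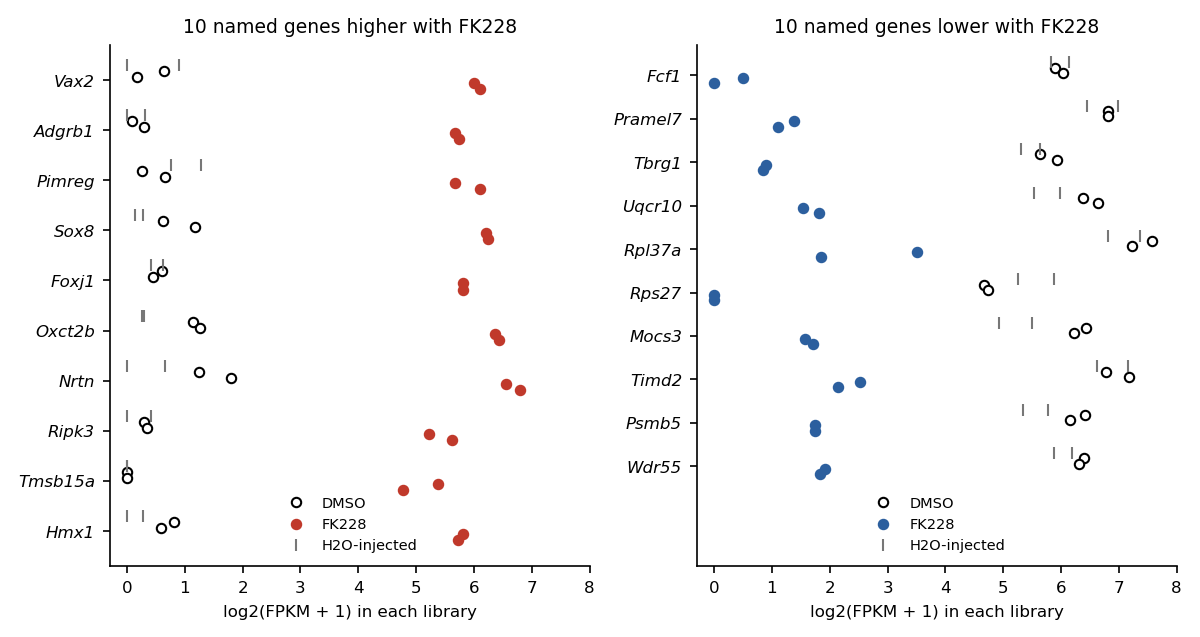
The 10 named genes with the largest increase (left) and the largest decrease (right), as log2(FPKM + 1) in each library: open circles DMSO, filled circles FK228, ticks water-injected embryos. FK228 points lie above every control point on the left and below every control point on the right, which the rule for naming required for DMSO. Rpl37a shows the widest FK228 pair, 10.4 and 2.62 FPKM.

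By absolute level, the largest gains and losses fell on other genes. Zbed3, a maternal protein of the subcortical maternal complex, was at 982 and 1372 FPKM with FK228 and 573 and 581 FPKM with DMSO (log2 fold change 1.01 ± 0.18, adjusted p = 1.6e-04), having stood at 10900 and 9623 FPKM at 24 h. Eif4a3l1, a copy of the RNA helicase gene Eif4a3, rose from 40.6 and 51.3 to 444 and 383 FPKM, and Cotl1, which binds actin filaments, from 19.7 and 21.3 to 187 and 196 FPKM (log2 fold changes 3.15 ± 0.20 and 3.17 ± 0.14). Eif4a3l1 and Cotl1 had no overlap between groups, which was a condition for naming them. Khdc1b, a KH domain gene of the oocyte and embryo, had 858 and 751 FPKM with FK228 and 574 and 572 FPKM with DMSO (log2 fold change 0.49 ± 0.19, adjusted p = 0.039), a call that was lost in 6 alternative analyses, among them leaving out any one of the 4 libraries. Losses were led by Rpl41, from 1301 and 1397 to 226 and 339 FPKM. Ybx1, an mRNA-binding protein, fell from 1012 and 723 to 162 and 192 FPKM. Rpl13a fell from 932 and 994 to 276 and 293 FPKM. Rps26 fell from 809 and 686 to 71.1 and 79.9 FPKM. Usp1, a deubiquitinase of DNA repair, fell from 913 and 781 to 191 and 340.5 FPKM. All 5 were called (log2 fold changes -3.29 to -1.72). The water-injected embryos differed from the DMSO embryos for 3 of them: they held 342 and 359 FPKM of Ybx1, 273 and 366 of Rpl13a and 246 and 225 of Usp1, closer to the FK228 than to the DMSO level, and the part of the solvent or of the water injection in these losses was not tested.

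The mRNAs of the inhibited enzymes themselves changed in different directions. Hdac1 was at 51.2 and 47.7 FPKM with FK228 and 90.6 and 92.1 FPKM with DMSO (log2 fold change -0.87 ± 0.18, adjusted p = 4.6e-04), and the water-injected embryos held 92.2 and 89.3 FPKM. Hdac2 was at 33.2 and 35.9 FPKM with FK228 and 20.9 and 21.2 FPKM with DMSO (log2 fold change 0.69 ± 0.14, adjusted p = 4.8e-04). Hdac3, the enzyme of the NCoR complex, went from 0.388 and 0.556 to 11 and 6.83 FPKM (log2 fold change 2.72 ± 0.29, adjusted p = 7.8e-07). Hdac1 was therefore lower and Hdac2 and Hdac3 higher with FK228, without overlap between groups, and the lower call of Hdac1 was lost under quantile normalization (log2 fold change -0.23). Hdac8 was not called, at 3.24 and 2.52 FPKM with FK228 and 2.64 and 3.53 FPKM with DMSO (log2 fold change -0.07 ± 0.27, adjusted p = 0.83). Of the other deacetylases, 4 were higher and 6 lower of 13 tested, beside 34.3% higher and 31.3% lower over all genes. Hdac11 rose from 0.654 and 1.71 to 16.6 and 19.9 FPKM and Hdac7 from 0.142 and 0 to 6.04 and 6.57 FPKM, while the NAD-dependent Sirt1 fell from 99 and 81.8 to 16.6 and 14 FPKM. Sirt6 fell from 16.5 and 23.4 to 2.32 and 2.43 FPKM.

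Several subunits of the complexes that carry HDAC1 and HDAC2, listed in part with the NCoR complex of HDAC3, were lower with FK228. Over all genes tested, 34.3% were higher and 31.3% lower. In NuRD, 2 were higher and 7 lower of 12 tested (median log2 fold change -0.76), and in SIN3, CoREST and NCoR, 3 were higher and 12 lower of 25 tested (median log2 fold change -0.52). Mta2, a scaffold of NuRD, fell from 273 and 264 to 22.9 and 18.7 FPKM (log2 fold change -3.63 ± 0.17, adjusted p = 3.0e-10). Cdk2ap1, a small NuRD subunit, fell from 145 and 164 to 21.5 and 19.9 FPKM (log2 fold change -2.84 ± 0.14, adjusted p = 6.1e-10). Kdm1a, the CoREST demethylase, was at 6.15 and 6.87 FPKM with FK228 and 28.6 and 25.2 FPKM with DMSO. Sap30, a SIN3 subunit, was at 47.1 and 35.5 FPKM with FK228 and 138 and 122 FPKM with DMSO. Ing2, the SIN3 subunit that reads methylated H3K4, went the other way, from 8.95 and 5.47 to 44.8 and 37 FPKM (log2 fold change 2.38 ± 0.22, adjusted p = 1.5e-07).

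Among enzymes that add or read acetylation, 1 was higher and 17 lower of 24 tested (median log2 fold change -0.98), against 34.3% higher and 31.3% lower over all genes tested. Brd8, a subunit of the TIP60 complex, was at 7.83 and 6.64 FPKM with FK228 and 42.4 and 36.1 FPKM with DMSO, and the acetyltransferases Kat7 and Kat8 fell with log2 fold changes of -1.77 ± 0.21 and -1.90 ± 0.23. In the H3K4 methylation list, 4 were higher and 7 lower of 19 tested (median log2 fold change -0.34), so the lower share was near that over all genes, and the median changed sign to 0.09 under quantile normalization. The 3 H3K4 demethylases Kdm5a, Kdm5b and Kdm5c were all lower. Kdm5b was at 27.7 and 30.4 FPKM with FK228 and 105 and 138 FPKM with DMSO (log2 fold change -2.01 ± 0.25, adjusted p = 3.0e-06). Kdm5a was at 9.64 and 9.74 FPKM with FK228 and 48 and 46.7 FPKM with DMSO (log2 fold change -2.18 ± 0.22, adjusted p = 4.4e-07) and Kdm5c at 17.6 and 13.6 FPKM with FK228 and 40.4 and 37.9 FPKM with DMSO (log2 fold change -1.29 ± 0.20, adjusted p = 2.9e-05). In each of them both FK228 values lay below both DMSO values. Men1, the menin subunit of H3K4 methyltransferase complexes, rose from 5.13 and 5.45 to 32.6 and 34.1 FPKM (log2 fold change 2.45 ± 0.29, adjusted p = 2.0e-06).

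The counts of 3 further chromatin lists stand beside 34.3% higher and 31.3% lower over all genes tested, and single members are given as such. Of Polycomb subunits, 7 were higher and 7 lower of 26 tested. Epop rose from 17.9 and 25.2 to 134 and 195 FPKM. Cbx8 rose from 3.75 and 1.63 to 27.1 and 19.6 FPKM. Pcgf6, of a variant PRC1 complex, fell from 77.1 and 70.2 to 11 and 7.85 FPKM (log2 fold change -2.86 ± 0.19, adjusted p = 4.3e-09). In the DNA methylation list, 4 were higher and 5 lower of 13. The maternal protector Dppa3 fell from 594 and 513 to 164 and 178 FPKM. The dioxygenase Tet1 fell from 11.4 and 13.3 to 3.05 and 2.79 FPKM. The imprint guardian Zfp57 fell from 71.8 and 54.2 to 26.2 and 25.9 FPKM. Of the replication-independent histones, 3 were higher and 6 lower of 12. The H3.3 gene H3f3a fell from 220.5 and 252 to 61.2 and 46.8 FPKM (log2 fold change -2.12 ± 0.25, adjusted p = 1.9e-06), while the centromere histone Cenpa fell from 143 and 141 to 43.5 and 40.4 FPKM (log2 fold change -1.73 ± 0.17, adjusted p = 3.6e-07). The median of the histone list (-0.36) changed sign to 0.18 under quantile normalization.

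The genes that control embryos switched on between 24 and 36 h were mostly lower with FK228. In embryos with wild-type Hdac1 mRNA, 2014 genes (13.9% of those tested) were higher at 36 h than at 24 h by at least 4-fold. With FK228, 1660 of the 2014 (82.4%) were lower than with DMSO and 66 were higher, against 31.3% lower and 34.3% higher over all genes tested, and their median log2 fold change was -1.68. Their median level was 2.02 FPKM at 24 h, 26.0 FPKM at 36 h, 34.2 FPKM in DMSO embryos and 9.73 FPKM with FK228. Thus these transcripts were lower with FK228 but not back at the 24 h level: in only 6.21% of them was the FK228 mean under the 24 h mean. Together they made up 31.8% and 31.7% of summed FPKM with DMSO and 13.2% and 13.3% with FK228. Of the 236 genes lower by at least 8-fold, 198 (83.9%) belonged to this class, and of the 477 higher by at least 8-fold, 0 did. Both counts are in part set by level. The class had a median of 34.2 FPKM in DMSO embryos, against 6.02 FPKM over all genes tested. On the log2 scale used, a gene with a low DMSO level cannot fall by 8-fold. A gene with a high DMSO level must reach a far higher one to rise by as much.

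Genes cleared over the same interval were higher with FK228 more often than lower. In all, 1059 genes (7.28%) fell by at least 4-fold between 24 and 36 h. With FK228, 469 of them (44.3%) were higher than with DMSO and 46 (4.34%) were lower, against 34.3% higher and 31.3% lower over all genes tested. Their median log2 fold change was 0.52. Their median level was 33.7 FPKM at 24 h, 5.43 FPKM in DMSO embryos and 10 FPKM with FK228. In 92.6% of them the FK228 mean was still below the 24 h mean. Of the maternal oocyte transcripts on a separate list, 17 were higher and 3 lower of 53 tested (median log2 fold change 0.39), and the higher share was no larger than the 34.3% over all genes.

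FK228 embryos held transcripts of many genes that other control embryos hardly expressed. There were 14342 genes in the table with a mean under 1 FPKM in the embryos with wild-type Hdac1 mRNA at 24 h and at 36 h and in the water-injected embryos. Both FK228 libraries had 1 FPKM or more for 2085 of them, and both DMSO libraries for 304. At 10 FPKM or more the numbers were 254 with FK228 and 1 with DMSO. Of the 2247 that could be tested, 1916 were called higher, 13.4% of the 14342, but 1650 of the 2247 passed the filter only through FK228, so the share among those tested is set by the filter (without either FK228 library it was 49.1% or 50.8%). Their part of summed FPKM was 4.3% and 4.6% with FK228 and 0.4% in both DMSO libraries. Vax2, Foxj1, Nrtn, Ripk3 and Hmx1 belong to this set, and Sox8 does not, having been at 5.41 and 5.49 FPKM at 24 h.

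**Figure D3:**
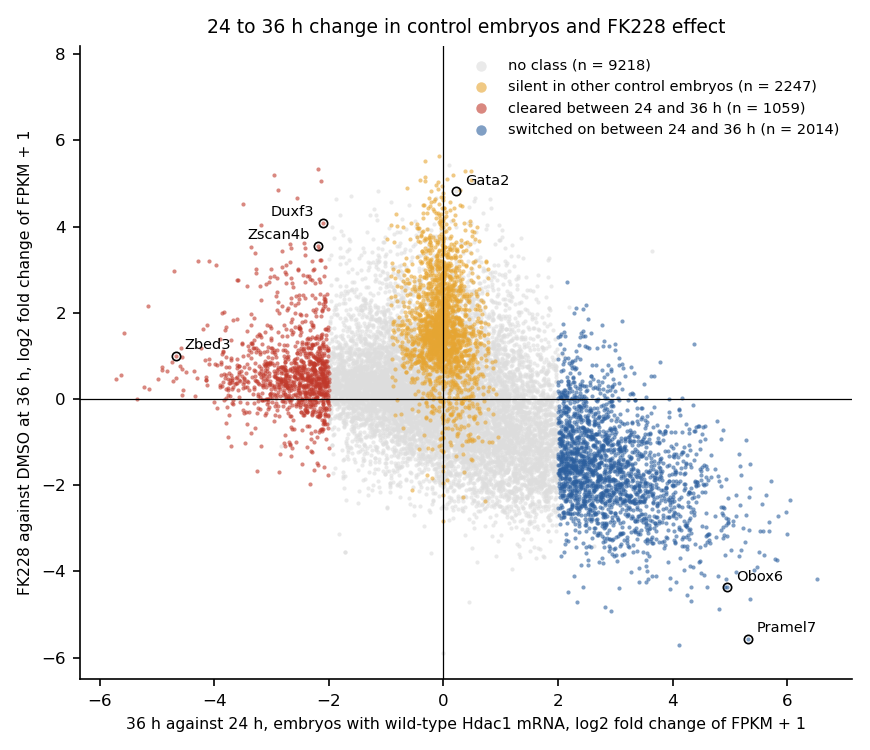
Each tested gene by its change from 24 to 36 h in embryos with wild-type Hdac1 mRNA (horizontal axis) and by the FK228 effect at 36 h (vertical axis), both as log2 fold change of FPKM + 1 from n = 2 libraries a group. Genes switched on (blue, 2014) lie mostly below 0, cleared genes (red, 1059) mostly above 0, and genes silent in other control embryos (yellow, 2247) form the column above 0 in the middle.

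Regulators of genome activation did not move as a block. In the list of Dux, Dppa2, Dppa4, Obox and other activators, 3 were higher and 18 lower of 30 tested (median log2 fold change -1.08). Over all genes tested, 34.3% were higher and 31.3% lower. Duxf3, the Dux gene that drives the 2-cell programme, was at 15.3 and 19.9 FPKM with FK228 and at 0.177 and 0 FPKM with DMSO (log2 fold change 4.09 ± 0.26, adjusted p = 3.4e-09), having been at 4.45 and 5.13 FPKM in 24 h embryos. With FK228 its level was above that of the 24 h embryos as well as above every late control, while embryos with mutant Hdac1 held 3.9 and 5.88 FPKM and those with mutant Hdac2 7.31 and 13.3 FPKM. Obox6, a homeobox gene of the major wave, fell from 149 and 149.6 to 5.95 and 6.59 FPKM (log2 fold change -4.37 ± 0.21, adjusted p = 4.3e-10). Obox8 fell from 109.7 and 120.1 to 8.01 and 7.63 FPKM (log2 fold change -3.71 ± 0.17, adjusted p = 3.8e-10). Dppa2, an upstream activator of Dux, fell from 102 and 113 to 8 and 6.08 FPKM (log2 fold change -3.76 ± 0.21, adjusted p = 1.3e-09). The water-injected embryos held 142 and 123 FPKM of Obox6 and 113 and 102 FPKM of Dppa2, close to DMSO. Members named after their values were seen were Dppa4, which fell from 141 and 148 to 13.3 and 14.1 FPKM, the nuclear receptor Nr5a2, which fell from 62.3 and 68 to 14.1 and 9.72 FPKM, and the pioneer subunit Nfya, which fell from 70.2 and 66 to 17.7 and 13.9 FPKM. Maternal Obox5 (70.4 and 65.2 FPKM with FK228 and 47.6 and 50.6 FPKM with DMSO) and Yap1 (404 and 383 FPKM with FK228 and 361 and 337 FPKM with DMSO) did not pass the test.

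Of the 2-cell burst genes, Zscan4 members were higher and Pramel6, Pramel7 and Trim43 members lower. In all, 24 were higher and 9 lower of 39 tested (median log2 fold change 1.41), against 34.3% higher and 31.3% lower over all genes tested. Zscan4b, of the telomere and genome stability family Zscan4, rose from 3.3 and 4.54 to 59.1 and 53.4 FPKM (log2 fold change 3.55 ± 0.28, adjusted p = 2.7e-08), and its normal course was a fall from 19.9 and 21.2 FPKM at 24 h to 4.92 and 2.83 FPKM at 36 h. All 5 Zscan4 genes in the table were higher, with Zscan4f, named after its values were seen, going from 31.7 and 40.7 to 201 and 153 FPKM. Tmem92, a 2-cell gene with no called change between 24 and 36 h in the control embryos, went from 29.2 and 39.6 to 293 and 259 FPKM (log2 fold change 2.98 ± 0.27, adjusted p = 1.2e-07). By contrast Pramel6 fell from 70.2 and 86 to 3.95 and 1.94 FPKM (log2 fold change -4.37 ± 0.34, adjusted p = 2.3e-08). Trim43c fell from 73.3 and 73.8 to 4.01 and 3.2 FPKM (log2 fold change -4.02 ± 0.27, adjusted p = 5.2e-09); both, like Pramel7, had been called as switched on after 24 h. Zscan4, Usp17l, Tdpoz, Trim43 and Pramel genes have near-identical copies, and single members are uncertain where the counting could split reads between copies.

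The machinery that makes proteins was lower almost throughout. Of cytosolic ribosomal protein genes, 0 were higher and 75 lower of 78 tested (median log2 fold change -2.17), where 31.3% of all genes were lower, and their summed level was 16100 and 15660 FPKM with DMSO and 4093 and 3762 FPKM with FK228. The 3 that did not pass, named after their values were seen, were Rpl7a, Rpl27a and Rps12, all with lower means with FK228. Of the genes named in the text, Rpl24, Trim43c, Cdkn1c, Rpl13a, Fgf15 and Ccnd1 share between 23.4% and 47% of exon length with another gene, and their reads cannot be told apart without strand. Rpl24 fell from 287 and 242 to 18.5 and 13.3 FPKM (log2 fold change -3.98 ± 0.23, adjusted p = 1.7e-09). Rps13 fell from 186 and 180.4 to 22 and 6.81 FPKM (log2 fold change -3.78 ± 0.35, adjusted p = 1.3e-07). Rpl37a fell from 188 and 149 to 10.4 and 2.62 FPKM (log2 fold change -4.71 ± 0.59, adjusted p = 4.1e-06). The FK228 pairs of Rps13 and Rpl37a were wide but lay below both DMSO values. Of factors of ribosome biogenesis, 0 were higher and 70 lower of 74 (median -2.25). Fbl, the fibrillarin methyltransferase of rRNA, fell from 227 and 199.7 to 10.7 and 12.2 FPKM (log2 fold change -4.10 ± 0.31, adjusted p = 1.5e-08). Mybbp1a fell from 143 and 155 to 9.82 and 7.56 FPKM. Utp4 of the small-subunit processome fell from 56.1 and 56.7 to 3.38 and 2.3 FPKM. Of translation initiation factors, 1 was higher and 32 lower of 36 (median -1.90), among them Eif3c, which fell from 118 and 124 to 5.54 and 5.88 FPKM (log2 fold change -4.18 ± 0.19, adjusted p = 2.9e-10), and Eif6, which fell from 385 and 389 to 27.9 and 28.3 FPKM.

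RNA synthesis, splicing and protein breakdown genes were also mostly lower. As with the ribosomal protein and ribosome biogenesis lists, limma called 0 splicing factors higher, and 0 in any of these 3 lists were higher at an unadjusted p under 0.05. Splicing factors had 0 higher and 54 lower of 61 (median log2 fold change -1.60), against 34.3% higher and 31.3% lower over all genes tested. Srsf1, an SR protein that marks exons, fell from 378 and 320.1 to 44.8 and 48.8 FPKM (log2 fold change -2.87 ± 0.20, adjusted p = 8.6e-09). Sf3a1, of the U2 particle, fell from 42.7 and 41.6 to 4.67 and 5.14 FPKM. Subunits of RNA polymerases I, II and III had 1 higher and 28 lower of 32 (median -1.59). Polr3e fell from 31.8 and 35.7 to 3.83 and 2.63 FPKM (log2 fold change -3.05 ± 0.22, adjusted p = 1.3e-08). Proteasome subunits had 3 higher and 29 lower of 40 (median -1.33). The ATPase subunit Psmc5 fell from 55 and 45.6 to 3.63 and 3.64 FPKM (log2 fold change -3.46 ± 0.23, adjusted p = 4.7e-09). Heat shock and chaperonin genes were mixed, 7 higher and 15 lower of 25. Tcp1 and Cct3 of the TRiC chaperonin fell with log2 fold changes of -2.71 ± 0.13 and -2.35 ± 0.16, Hspa4 fell from 48.9 and 39.5 to 2.99 and 5.15 FPKM, and the small heat shock gene Hspb8 went from 0 and 1.11 to 23.7 and 17.5 FPKM.

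**Figure D4:**
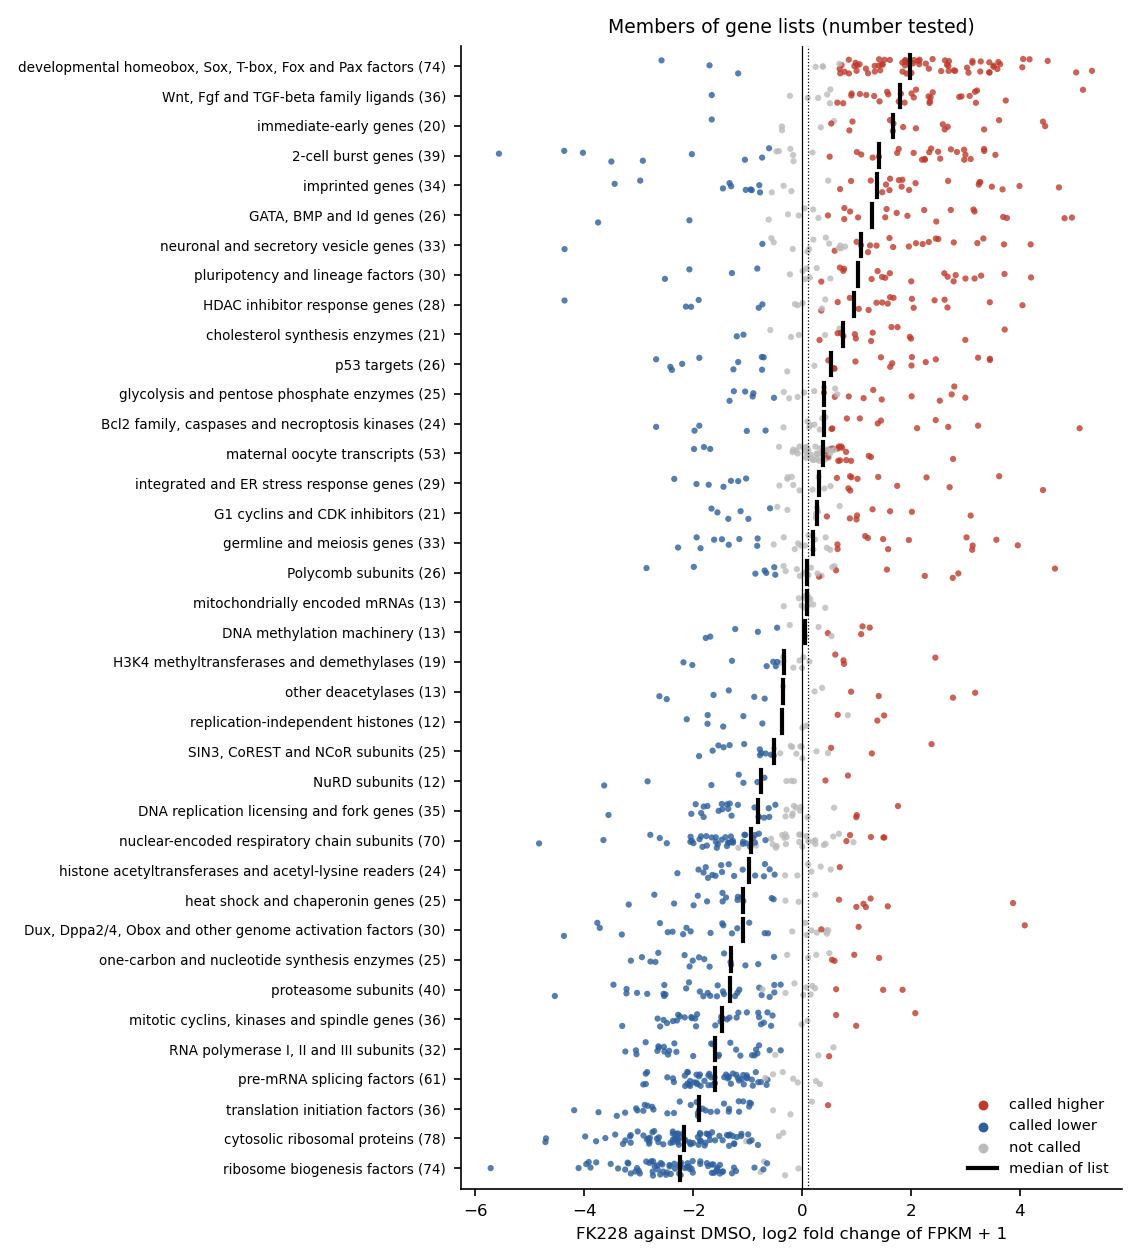
Log2 fold change of FPKM + 1, FK228 against DMSO, for the tested members of each list with 12 or more tested (number in brackets), with thick marks at the medians, red for members called higher, blue for lower and grey for not called; the dotted line is the median of all genes. Ribosome biogenesis (median -2.25) and cytosolic ribosomal proteins (-2.17) lie lowest, and developmental transcription factors (1.99) lie highest, where many members passed the filter only through FK228.

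Energy metabolism differed by pathway, beside 34.3% higher and 31.3% lower over all genes tested. Nuclear-encoded respiratory chain subunits had 5 higher and 39 lower of 70 (median log2 fold change -0.94), led by Uqcr10 and by Cox7c of complex IV, which fell from 36 and 53.5 to 5.47 and 0.989 FPKM (log2 fold change -3.65 ± 0.45, adjusted p = 3.2e-06). The 13 mRNAs encoded by the mitochondrial genome had 0 called in either direction by limma, and 0 at an unadjusted p under 0.05 (median 0.10, range -0.34 to 0.43). Enzymes of glycolysis and the pentose phosphate pathway had 11 higher and 6 lower of 25 (median 0.40). The hexokinases Hk1 and Hk2 rose from 4.21 and 3.12 to 28.7 and 23.1 FPKM and from 2.86 and 1.16 to 22.9 and 21.2 FPKM. Pfkp, a phosphofructokinase, rose from 3.93 and 2.64 to 27.8 and 27.1 FPKM. The glucose transporter Slc2a1 rose from 3.04 and 2.12 to 21.9 and 25.6 FPKM. The log2 fold change of Pfkp was 2.75 ± 0.26, and neither hexokinase overlapped between groups. Cholesterol synthesis was higher at 14 and lower at 2 of 21 enzymes (median 0.76). Msmo1, a sterol demethylating oxidase, rose from 3.28 and 4.88 to 69.7 and 61 FPKM (log2 fold change 3.72 ± 0.20, adjusted p = 7.8e-10). One-carbon and nucleotide synthesis ran the other way, 4 higher and 17 lower of 25 (median -1.31). Impdh2, of guanine nucleotide synthesis, fell from 165 and 188 to 22.9 and 21.3 FPKM (log2 fold change -2.94 ± 0.19, adjusted p = 4.0e-09). Cad, of pyrimidine synthesis, fell from 67.2 and 79.3 to 9.58 and 11.4 FPKM (log2 fold change -2.69 ± 0.40, adjusted p = 2.3e-05).

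Genes of DNA replication and mitosis were lower, while the counts for cell cycle entry were near those over all genes. Replication genes had 3 higher and 22 lower of 35 (median log2 fold change -0.80). Gins3, of the replicative helicase, fell from 22.6 and 22.8 to 1.03 and 1.01 FPKM (log2 fold change -3.55 ± 0.35, adjusted p = 2.8e-07). The licensing subunit Mcm6 fell from 82 and 78.5 to 17 and 23.4 FPKM. Mitotic genes had 3 higher and 31 lower of 36 (median -1.47). Prc1, which bundles the central spindle, fell from 136 and 128 to 12.9 and 12 FPKM (log2 fold change -3.30 ± 0.25, adjusted p = 1.6e-08). The mitotic kinase Aurka fell from 159 and 148 to 28.2 and 21 FPKM (log2 fold change -2.60 ± 0.17, adjusted p = 3.5e-09). The motor Kif11 fell from 25.4 and 23.5 to 3.22 and 2.88 FPKM. Among G1 cyclins and CDK inhibitors, 8 were higher and 6 lower of 21, near the 34.3% and 31.3% over all genes. The inhibitor Cdkn1a (p21) rose from 19 and 20.2 to 86.5 and 78.5 FPKM (log2 fold change 2.02 ± 0.15, adjusted p = 1.4e-08) and water-injected embryos held 24.2 and 18.9 FPKM. Ccnd2 went from 0.0347 and 0.207 to 8.98 and 8.16 FPKM, whereas Ccnd1 fell from 13.5 and 14.4 to 3.41 and 4.04 FPKM (log2 fold change -1.66 ± 0.37, adjusted p = 9.4e-04). The Ccnd1 level in water-injected embryos was 2.06 and 4.31 FPKM, near that of the FK228 embryos. Cdkn1c, an imprinted CDK inhibitor, stood at 206 and 211 FPKM with FK228 and 77.2 and 58.8 FPKM with DMSO but at 13.7 and 15.3 FPKM in water-injected embryos, so here the DMSO embryos were themselves above the other control.

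Many developmental transcription factors were higher with FK228. Of 86 homeobox, Sox, T-box, Fox and Pax genes in the table, 74 were tested and 31 of these passed only through FK228. Among the 74, 67 were called higher and 3 lower, and over all genes tested 34.3% were higher and 31.3% lower. The 2 are not like for like, since the filter sets the list's count in part. Over all genes, 2251 of 14538 passed only through FK228. The summed level of the list was 1155 and 1296 FPKM with FK228 and 255.5 and 287 FPKM with DMSO. Nkx6-1, a factor of the ventral neural tube and pancreas, rose from 1.08 and 1.69 to 66 and 88.8 FPKM (log2 fold change 5.04 ± 0.22, adjusted p = 2.9e-10). Olig2, of the oligodendrocyte lineage, rose from 0.833 and 0.0286 to 26.1 and 35.1 FPKM (log2 fold change 4.51 ± 0.25, adjusted p = 1.3e-09). Dlx2, of the forebrain and branchial arches, rose from 1.44 and 2.25 to 45.3 and 55.1 FPKM (log2 fold change 4.18 ± 0.26, adjusted p = 2.7e-09). FK228 values of these 3 genes were at 26.1 FPKM or more and DMSO values at 2.25 FPKM or less. Of 51 secreted Wnt, Fgf and TGF-beta family genes in the table, 36 were tested, 15 of them through FK228 alone. Of the 36, 29 were higher and 1 lower, a count that the filter sets in part too. Wnt11 rose from 1.92 and 3.05 to 43.9 and 46 FPKM (log2 fold change 3.74 ± 0.34, adjusted p = 1.3e-07). The angiogenic factor Vegfa rose from 10 and 10.2 to 95 and 109 FPKM (log2 fold change 3.21 ± 0.34, adjusted p = 6.9e-07) and Fgf15 from 0 and 0.04 to 8.04 and 8.62 FPKM.

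Single genes of later lineages were also higher, in lists whose counts are partly set by the filter. Of 28 GATA, BMP and Id genes, 26 were tested, 6 of them through FK228 alone, and 18 were higher and 2 lower, against 34.3% higher and 31.3% lower over all genes tested. Bmp4, a ligand of mesoderm and germ cell induction, rose from 0.0346 and 0.316 to 34.8 and 35.7 FPKM (log2 fold change 4.96 ± 0.26, adjusted p = 7.6e-10). Gata2, a factor of trophoblast and blood, rose from 4.74 and 5.07 to 161 and 171 FPKM (log2 fold change 4.82 ± 0.23, adjusted p = 3.9e-10). Gata1, of the red cell lineage, fell from 99 and 94.5 to 5.85 and 6.75 FPKM (log2 fold change -3.75 ± 0.29, adjusted p = 2.5e-08), and it had been switched on after 24 h in the control embryos. Of 32 pluripotency and lineage factors, 30 were tested, 6 of them through FK228 alone, and 19 were higher and 4 lower. Sox17, of the primitive endoderm, rose from 0.148 and 0.395 to 24.6 and 20.4 FPKM (log2 fold change 4.21 ± 0.30, adjusted p = 9.6e-09). Foxa2, of definitive endoderm, rose from 0.119 and 0.118 to 12.4 and 15.1 FPKM. Gata3, of the trophectoderm, rose from 0.276 and 0.465 to 8.87 and 14.3 FPKM. These single genes of endoderm (Sox17 and Foxa2) and of trophectoderm (Gata3) were thus raised in the same libraries. The 4 lower members of that list went the other way, down to a log2 fold change of -2.52. Of 48 neuronal and vesicle genes, 33 were tested, 11 of them through FK228 alone, and 19 were higher and 2 lower. The neurofilament Nefm rose from 0.159 and 0.0812 to 19.9 and 19.2 FPKM (log2 fold change 4.20 ± 0.23, adjusted p = 1.2e-09). The potassium channel Kcnh2 rose from 2.07 and 4.85 to 51.9 and 57 FPKM. Stmn3, a microtubule regulator of neurons, fell from 59.9 and 59.2 to 2.59 and 1.42 FPKM (log2 fold change -4.36 ± 0.28, adjusted p = 3.8e-09) and is another gene that the controls switched on after 24 h, from 0.215 and 0.138 FPKM.

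Among stress and cell death genes, the counts stand beside 34.3% higher and 31.3% lower over all genes tested. Immediate-early genes had 15 higher and 1 lower of 20 (median log2 fold change 1.67), with 5 tested through FK228 alone. Atf3 rose from 1.8 and 1.4 to 54.8 and 54.7 FPKM (log2 fold change 4.42 ± 0.29, adjusted p = 4.4e-09). Junb rose from 1.66 and 1.69 to 34.5 and 29.3 FPKM (log2 fold change 3.62 ± 0.18, adjusted p = 4.8e-10). Jun rose from 1.69 and 2.11 to 26.3 and 30.6 FPKM (log2 fold change 3.34 ± 0.22, adjusted p = 4.0e-09). Fosl1 rose from 0.129 and 0.642 to 25.1 and 33.6 FPKM, but 57.2% of its exon length is shared with Ccdc85b. All 4 are subunits of AP-1 type dimers, and none had a DMSO value above 2.11 FPKM. Of the genes known to respond to deacetylase inhibitors in cultured cells, 17 were higher and 6 lower of 28 (median 0.96), with 4 tested through FK228 alone. Gadd45g, a growth arrest gene, rose from 2.57 and 2.49 to 68.3 and 48.2 FPKM (log2 fold change 4.05 ± 0.35, adjusted p = 6.6e-08). The antiproliferative Btg2 rose from 2.95 and 5.14 to 56.2 and 49.6 FPKM. The actin-severing Gsn rose from 0.486 and 0.625 to 10.3 and 7.67 FPKM. Of p53 targets, 14 were higher and 10 lower of 26, with 4 tested through FK228 alone. The pro-apoptotic Bbc3 (PUMA) rose from 8.27 and 3.47 to 54.4 and 65.2 FPKM (log2 fold change 3.23 ± 0.35, adjusted p = 8.1e-07) while Bax, also pro-apoptotic and a p53 target, fell from 25.4 and 23.1 to 1.97 and 4.23 FPKM (log2 fold change -2.68 ± 0.31, adjusted p = 1.7e-06). The Bcl2 family, caspases and necroptosis kinases had 11 higher and 5 lower of 24. Bik rose from 3.66 and 2.06 to 21.2 and 25.5 FPKM. Of integrated and ER stress genes, 12 were higher and 7 lower of 29, not far from the shares over all genes. Xbp1 rose from 0.968 and 0.568 to 20.5 and 20.7 FPKM. The glutathione-degrading Chac1 rose from 1.58 and 1.03 to 11.9 and 16.4 FPKM, and Selenos, of ER protein degradation, fell from 214 and 219 to 38.8 and 45 FPKM.

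Of 43 imprinted genes in the table, 34 were tested, 11 of them through FK228 alone, and 20 were higher and 10 lower, against 34.3% higher and 31.3% lower over all genes tested (median log2 fold change 1.37, but -0.53 and -0.28 without FK228 replicate 1 and 2, when members present only with FK228 could not be tested). Igf2, the paternally expressed growth factor (chr7:142650766-142666816 in GRCm38, minus strand), was at 53.5 and 48 FPKM with FK228 and 1.71 and 0.424 FPKM with DMSO (log2 fold change 4.72 ± 0.31, adjusted p = 4.2e-09); 62.8% of its exon length is shared with Gm49394, and Igf2os overlaps it too, so that the strand of these reads is not known. H19, the maternally expressed non-coding RNA next to it, rose from 0.276 and 0.0922 to 9.91 and 15 FPKM (log2 fold change 3.49 ± 0.42, adjusted p = 2.4e-06). Dlk1, a paternally expressed Notch-like ligand, rose from 0.775 and 0.486 to 14.9 and 26.3 FPKM (log2 fold change 3.68 ± 0.41, adjusted p = 1.2e-06). Nnat rose from 0.694 and 0.821 to 20.8 and 34.9 FPKM. Paternally and maternally expressed genes were thus among those raised; the allele of origin was not measured. Of 46 germline and meiosis genes, 33 were tested, 12 were higher and 9 lower, shares close to the 34.3% and 31.3% over all genes. Stra8, the gatekeeper of meiosis, rose from 0.13 and 0.195 to 15.6 and 18.8 FPKM (log2 fold change 3.96 ± 0.27, adjusted p = 7.1e-09). The cohesin Rec8 rose from 1.51 and 0.614 to 16.9 and 16.4 FPKM. Taf7l rose from 0.887 and 0.205 to 19.2 and 14.9 FPKM. Sycp3, of the synaptonemal complex, rose from 8.23 and 12.7 to 101 and 93.5 FPKM with 52.2% of its exon length shared with Chpt1.

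Markers of other cells that embryo samples can hold were examined. Of 22 cumulus and granulosa cell markers, 6 were expressed enough to test. Lhcgr and Hsd3b1 were listed at 0 in all 4 libraries, and Fshr, one of the genes set as defining, in 3. The other genes set as defining (Amh, Foxl2, Cyp19a1, Cyp11a1, Star and Has2) are not reported here. Summed FPKM of that list was 95.7 and 89.8 with FK228 and 75.4 and 85.4 with DMSO. Krt18 and Wt1 rose (to 55.6 and 47 and 12.3 and 5.83 FPKM), and Amhr2 fell from 57.7 and 60.5 to 5.51 and 14.3 FPKM. Of 15 blood and immune markers in the table, 8 were tested, 2 of them through FK228 alone. Of the 8, 6 were higher, against 34.3% over all genes tested. Summed FPKM of that list was 211 and 192 with FK228 and 17.5 and 23.2 with DMSO. The largest parts of that sum were Hba-a1 (78.6 and 63.9 FPKM with FK228 and 3.74 and 5.61 FPKM with DMSO) and Hba-a2 (76.1 and 67.8 FPKM with FK228 and 4.24 and 4.4 FPKM with DMSO), near-identical alpha-globin copies, and Cd74 (26.2 and 31.8 FPKM with FK228 and 1.22 and 4.43 FPKM with DMSO). The beta-globins Hbb-bs and Hbb-bt were at 0.332 FPKM or less. The leukocyte marker Fcer1g was listed at 0 in all 4 libraries, and the leukocyte marker Ptprc was at 0.0176 FPKM in 1 FK228 library and at 0 in the others. The part of such cells in the gene groups above was not tested. Of 12 sperm transcripts, 3 were tested and 1, Ldhc, was higher. Sums of the sperm list were 11.8 and 16.2 FPKM with FK228 and 5.70 and 7.23 FPKM with DMSO.

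The FK228 effect resembled that of mutant Hdac1 or Hdac2 mRNA in direction, measured against other libraries. Against embryos with wild-type mRNA, mutant Hdac1 mRNA gave 4776 genes higher (32.9%) and 3650 lower (25.1%), of which 3449 (23.7%) and 2397 (16.5%) by at least 2-fold, and mutant Hdac2 mRNA gave 4789 higher (32.9%) and 3818 lower (26.3%), of which 3578 (24.6%) and 2530 (17.4%) by at least 2-fold. Over the genes tested, the log2 fold change of FK228 correlated with that of mutant Hdac1 at r = 0.868 and with that of mutant Hdac2 at r = 0.909, a description across genes, which are not independent. Of the 3665 genes higher by at least 2-fold with FK228, 83.7% were called higher with mutant Hdac1 and 89.7% with mutant Hdac2. Of the 3357 lower genes 81.2% and 85% were called lower. The median log2 fold change of the lower genes was -1.73 with FK228, -1.26 with mutant Hdac1 and -1.33 with mutant Hdac2. For the higher genes it was 1.73, 1.51 and 1.68. Both sets were picked by their FK228 effect, which favours a larger median with FK228. The filter used only the FK228 and DMSO libraries, so a gene raised by a mutant but under 1 FPKM there was not tested. A filter on all 22 mouse libraries kept 17336 genes. The mutant counts are thus limited to the genes tested, and the shares of them called with FK228 may be too high. In that direction, FK228 raised 85.6% of the 3449 and 90% of the 3578 genes higher by at least 2-fold with the mutants. It lowered 95.5% of the 2397 and 96.6% of the 2530 lower ones. Opposite calls among these were 15, 7, 4 and 1. Gata2, for example, was at 99.5 and 93.1 FPKM with mutant Hdac1 and 163 and 170.1 FPKM with mutant Hdac2 beside 161 and 171 FPKM with FK228. Of the genes silent in other control embryos, 1547 had 1 FPKM or more in both mutant Hdac1 libraries and 1969 in both mutant Hdac2 libraries, beside 2085 with FK228.

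Where the effects were tested against each other, a small share of genes passed the test of the difference. The FK228 effect lay above the mutant Hdac1 effect for 435 genes (2.99%) and below it for 893 (6.14%), and above the mutant Hdac2 effect for 143 (0.984%) and below it for 320 (2.2%). These 4 counts were unstable: without 1 FK228 or DMSO library at a time they ranged from 35 to 207, from 286 to 556, from 7 to 39 and from 45 to 216. Igf2 differed from both mutants. With mutant Hdac1 it was at 1.39 and 1.05 FPKM and with wild-type Hdac1 at 0.817 and 1.7 FPKM, and with mutant Hdac2 at 2.8 and 1.8 against 1.54 and 1.45 FPKM, beside 53.5 and 48 FPKM with FK228 (difference of log2 effects 4.72 ± 0.43, adjusted p = 1.2e-04, and 4.33 ± 0.43, adjusted p = 2.9e-04). Igf2 was therefore high in the FK228 libraries and at control level in those of either mutant. Dlk1 exceeded the mutant Hdac1 effect by 3.62 ± 0.59 (adjusted p = 0.0033), at 1.39 and 3.72 FPKM with mutant and 2.78 and 1.74 FPKM with wild-type Hdac1, but did not differ by the test from the mutant Hdac2 effect (adjusted p = 0.098). Ifitm2, an interferon-induced membrane protein gene of which 40.9% of exon length is shared with a neighbour, was at 17.5 and 14.1 FPKM with FK228 and 1.12 and 0.974 FPKM with DMSO and at 0.282 and 1.91 FPKM with mutant Hdac1 (adjusted p of the difference = 0.0042). For H19 the differences of 1.76 ± 0.59 and 2.12 ± 0.59 did not pass (adjusted p = 0.073 and 0.06).

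On the other side, 3 of the genes with a smaller FK228 effect had high levels in DMSO embryos. Irx5, an Iroquois homeobox gene, was at 46.9 and 53.5 FPKM with FK228 and 25.6 and 12.8 FPKM with DMSO, against 35.9 and 39.1 FPKM with mutant and 0.557 and 0.595 FPKM with wild-type Hdac1 (difference -3.19 ± 0.40, adjusted p = 0.0011). Dmrta2, a doublesex-related factor of the forebrain, was at 15.9 and 20.2 FPKM with FK228 and 33.7 and 22 FPKM with DMSO, against 25.6 and 31.6 FPKM with mutant and 3.2 and 3.54 FPKM with wild-type Hdac1 (difference -3.33 ± 0.39, adjusted p = 7.5e-04). Cited1, a CBP-binding coactivator, was at 27.7 and 31.5 FPKM with FK228 and 60.8 and 60.2 FPKM with DMSO, against 42.4 and 35.5 FPKM with mutant and 4.44 and 13.5 FPKM with wild-type Hdac1. In all 3 the DMSO embryos held more than the wild-type Hdac1 embryos, and water-injected embryos had 1.32 and 2.7, 4.24 and 8.22 and 25.2 and 19.4 FPKM. Against mutant Hdac2, H2-Q5, a class I histocompatibility gene, lay above (3.58 ± 0.45), at 9.55 and 12.8 FPKM with FK228 and 5.9 and 9.25 FPKM with DMSO, 66.5 and 29.9 FPKM with wild-type and 4.18 and 4.81 FPKM with mutant Hdac2. Tmsb15a was at 3.92 and 2.97 FPKM with mutant Hdac2 and listed at 0 with wild-type Hdac2, and its difference did not pass without either DMSO library. Zfp987 and Fkbpl lay below the mutant Hdac2 effect: Fkbpl, an immunophilin-like gene, fell from 49.4 and 52.7 to 8.78 and 7.04 FPKM with FK228 and was at 12.2 and 12.6 FPKM with mutant and 10.5 and 14.8 FPKM with wild-type Hdac2. Rnu2-10, a U2 RNA copy, was listed at 0 in both FK228 libraries and at 12.4 and 9.23 FPKM with DMSO, 11.7 and 0 FPKM with mutant and 0 and 0 FPKM with wild-type Hdac2, and its difference was lost in 5 alternative analyses.

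**Figure D5:**
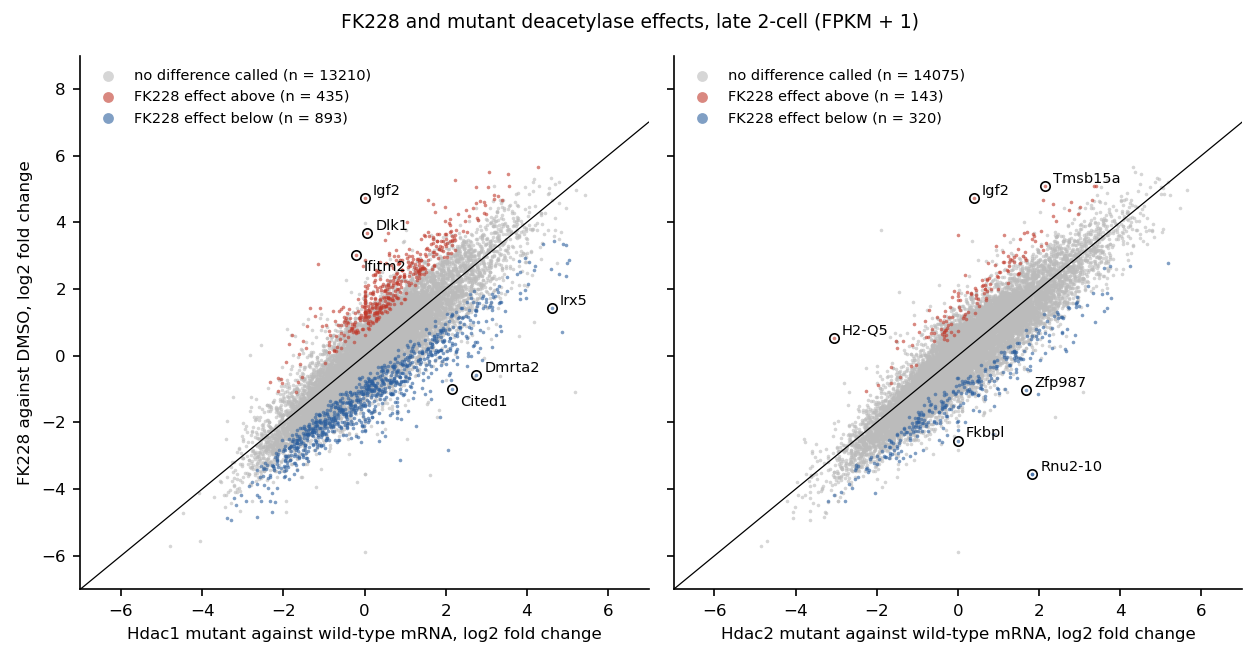
FK228 effect (vertical axis) against the effect of mutant Hdac1 (left) and mutant Hdac2 mRNA (right) in late 2-cell embryos, all as log2 fold change of FPKM + 1 against their own controls; the line marks equal effects. Most genes follow the line, with 435 and 143 genes above it (red) and 893 and 320 below it (blue) by the test of the difference, and Igf2 stands above the line in both panels.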

How the data were processed

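Late 2-cell mouse embryos were profiled by RNA-seq of polyA RNA (NEB Next Ultra kit, 12 to 15 PCR cycles, per the labels' protocols). The authors deposited one table of FPKM for 22 mouse libraries. The submitters' processing notes name Trimmomatic, HISAT2, featureCounts, Cufflinks and DESeq2 and the build GRCm38; their versions and roles were not given in the sources used here. No counts were used, so no count model was fitted. Values below 0.001 FPKM were treated as listed at 0.

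From the deposited FPKM, log2(FPKM + 1) was fitted with limma 3.58.1 (R 4.3.3) over all 22 libraries in 11 groups (11 residual degrees of freedom, trended empirical Bayes), with Benjamini-Hochberg adjustment over all genes tested and calls at an adjusted p under 0.05. Fold changes are on this log2(FPKM + 1) scale, which understates the change of low genes, and errors after ± are standard errors. Differences from the mutant effects were contrasts in the same fit. Switched-on and cleared genes were called between 24 and 36 h with at least a 4-fold change. The fit was tested on simulated data.

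Named genes were the 10 largest called changes in each direction without overlap between groups, where the higher group averaged 5 FPKM or more and the symbol was no clone or predicted symbol, the 5 largest gains and losses in FPKM, up to 4 of the largest called changes in each list, the class I deacetylases, and the 3 largest differences above and below each mutant effect. Other named genes were chosen after their values were seen. The members and lists were chosen with earlier results of these data known, so a list's count is a description. Genes were placed with GENCODE M21, and promoters were read from RefSeq. Alternatives varied the pseudocount, filter, scaling, libraries in the fit, replicate block and single libraries. The bovine libraries were not used. A few genes that the rule names are not reported here.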

Additional observations from a re-analysis of the deposited data

How the results depend on the processing

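With 2 libraries a group, no absolute depth and relative units, the precision of low genes is not known. The share of switched-on genes that were lower was 82.4% in the main fit and between 77.6% and 78.6% without any one library. It depended more on the pseudocount, at 63.4% with 0.1 FPKM and 94% with 5 FPKM. These were its lowest and highest values over the alternatives.

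Genes higher with FK228 were 2876 with a filter of at least 5 FPKM, and those higher by at least 2-fold were 2074 with that filter and 1614 with a pseudocount of 5 FPKM. Genes above the Hdac1 mutant effect were 134 and 834 with pseudocounts of 0.1 and 5 FPKM and 273 with the 5 FPKM filter. Genes above the Hdac2 mutant effect were 27 and 346 with those pseudocounts, 294 with quantile normalization and 76 in a fit of the late 2-cell libraries only. Genes below the Hdac1 mutant effect were 451 with median-ratio scaling, and genes below the Hdac2 mutant effect were 150 with that scaling, 144 and 580 with the pseudocounts and 211 in the late 2-cell fit. Of silent genes tested, 31.1% were higher with no filter on low values, when many more undetected genes enter. The cause of the other shifts was not tested.

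Leaving out 1 FK228 or DMSO library at a time gave 2354 to 4436 genes higher, 1742 to 3632 higher by at least 2-fold, 35 to 207 and 7 to 39 above the Hdac1 and Hdac2 mutant effects, 286 to 556 and 45 to 216 below them, and 49.1% to 85% of silent genes higher. Calls were 52.3% higher, and 36.5% and 37.1% without FK228 replicate 1 and 2. They were 42.1% with the 5 FPKM filter, 49.7% after quantile normalization and 57.4% after median-ratio scaling.

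Hdac8, which was not called, changed sign to 0.05 with median-ratio scaling, and, without 1 library at a time, ranged from -0.23 to 0.09, above 0 without FK228 replicate 2 (0.06) and without DMSO replicate 2 (0.09). Over the named genes, 2468 recomputed values kept their direction and side of the threshold, 10 lost their call, 5 gained one and these 3 reversed. Besides Hdac1 and Khdc1b, Tdg lost its call with quantile normalization and Zfp987 without FK228 replicate 2 or DMSO replicate 1.

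With the replicate number as a block, 4927 genes were higher and 4513 lower, 3661 and 3352 of them by at least 2-fold. Same-numbered libraries did not deviate together (correlation -0.009 over genes), so the numbers were not taken as pairs. A fit of the 4 libraries alone gives no value for the mutant differences and the 24 to 36 h classes, and one of the late 2-cell libraries none for those classes.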

Other observations

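Genes with the largest changes in either direction had shorter median spans than all genes, a difference that was not tested. Genes higher by at least 8-fold had a median span of 11.6 kb and genes lower by at least 8-fold one of 10.5 kb, against 18.9 kb over all genes tested. Protein-coding genes were 94.3% and 90.6% of them and 88.3% of all genes.

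The DMSO embryos were not at the water-injected level for every gene. Epop was at 17.9 and 25.2 FPKM with DMSO and 1.96 and 3.96 FPKM in water-injected embryos, and Cdkn1c at 77.2 and 58.8 and 13.7 and 15.3 FPKM. In both cases the FK228 libraries lay above either control, at 134 and 195 FPKM of Epop and 206 and 211 FPKM of Cdkn1c.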
